A study of Mus musculus with 6 samples.

Results

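DNA replication and S-phase genes were followed in the livers of mice lacking p14 in the liver. The set held 44 genes that load and open replication origins, copy DNA, supply nucleotides, handle newly made chromatin or control entry into S phase. A gene was read from the probe sets that the array annotation pairs with its symbol alone, and where several did so, from the one that was brightest on average. On this basis 43 of the 44 genes had a probe set, and 34 were bright enough to test, among 10009 genes tested in all. Livers of 6 male C57BL/6 mice aged 6 weeks were profiled, with 1 Affymetrix array per mouse. The 3 mice of the KO group carried a conditional knockout of p14 in the liver, and the 3 mice of the WT group were labelled p14 WT. No treatment is recorded for either group. p14 is the product of Lamtor2, an adaptor protein of late endosomes and a subunit of the Ragulator complex. Which promoter drove the deletion, and whether the controls carried a floxed allele or the recombinase, is not given in the sources used here. Mice are labelled as biological replicates and are written KO 1 to KO 3 and WT 1 to WT 3.

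Replication begins at origins that the origin recognition complex marks. In G1 the loaders Cdc6 and Cdt1 place the ring-shaped Mcm helicase there, and in S phase Cdc45 and the GINS complex switch it on. Primase and the polymerases then copy both strands, the sliding clamp Pcna holds the polymerases on DNA, and Fen1 and Lig1 join the pieces of the lagging strand. Many of these genes are transcribed under E2F factors at the G1/S transition. Most hepatocytes of an adult liver are out of the cell cycle, while a young liver still holds some dividing cells.

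All values are log2 levels. A gene was tested where at least 3 of the 6 arrays reached a log2 level of 4. The medians of all genes tested deviated by -0.03 to 0.02 from the WT mean on the 6 arrays. Lamtor2 itself measured 10.08 to 10.19 in KO livers and 11.29 to 11.35 in WT livers. KO 3 stood nearer to the WT arrays than the other KO arrays did, with a mean correlation over genes of 0.9871 with WT and of 0.9864 with KO 1 and KO 2. WT 2 held skeletal muscle transcripts, with Acta1 at 13.72 against 2.32 to 3.25 on the other arrays. The liver markers Alb, Apoa1 and Ttr lay between 16.05 and 16.28 on every array.

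Across the set, 30 of 34 genes tested had a lower mean in KO than in WT, or 88.2%, where 58.4% of all genes did. The median difference, KO minus WT, was -0.41 for the set and -0.04 for all genes. With levels floored at 4 both medians were the same, -0.41 and -0.04. Each of the 34 reached 4 on all 6 arrays. None of the 34 was called, that is, 0 passed a Benjamini-Hochberg adjusted p of 0.05 in limma, where 0.17% of all genes did. At an unadjusted p under 0.05 in limma, 14 were lower in KO, or 41.2%, against 10.1% of all genes, and 1 was higher, against 4.32% of all genes. The 3 KO arrays lay wholly below the 3 WT arrays for 14 genes, again 41.2%, where this held for 14% of all genes. They lay wholly above for Mcm10 alone, where this held for 6.54% of all genes. By the brightest probe set, a mean at least 2-fold lower in KO was found for 8 of 34 genes, or 23.5%, against 1.56% of all genes. These were Mcm2, Mcm3, Mcm5, Mcm6, Mcm7, Cdt1, Prim1 and Lig1, which load or form the replicative helicase, start DNA strands or seal them. No further tested probe set of Mcm7 or Cdt1 reached 2-fold, and of those of Mcm3 only the one at -1.03 did. A liver sample with fewer dividing cells and one with less RNA of the replication genes in each cell cannot be told apart here.

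**Figure D1:**
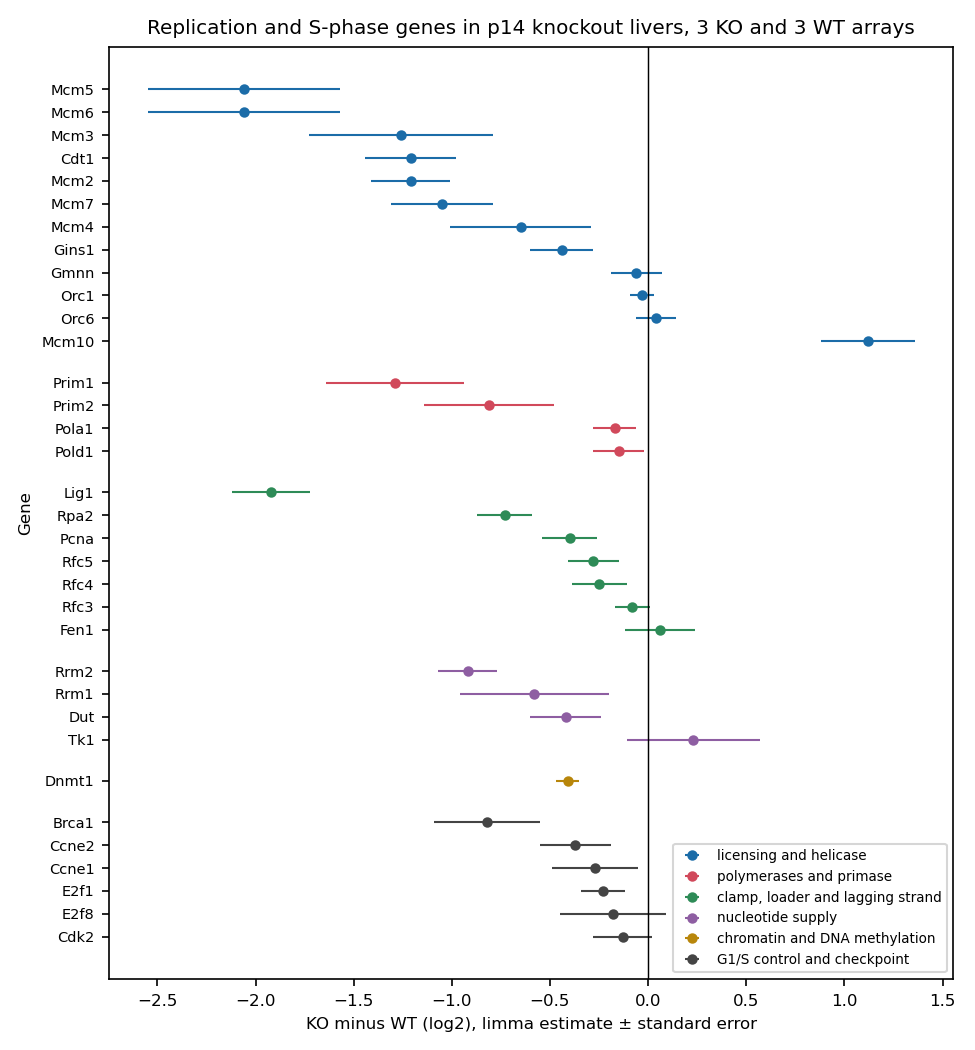
Difference between KO and WT livers (KO minus WT, log2) for the 34 replication and S-phase genes tested, with limma's standard error, grouped by role (3 arrays a group). Mcm5, Mcm6 and Lig1 lie furthest to the left, at -2.06, -2.06 and -1.92, and Mcm10 stands alone on the right at 1.12.

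**Figure D2:**
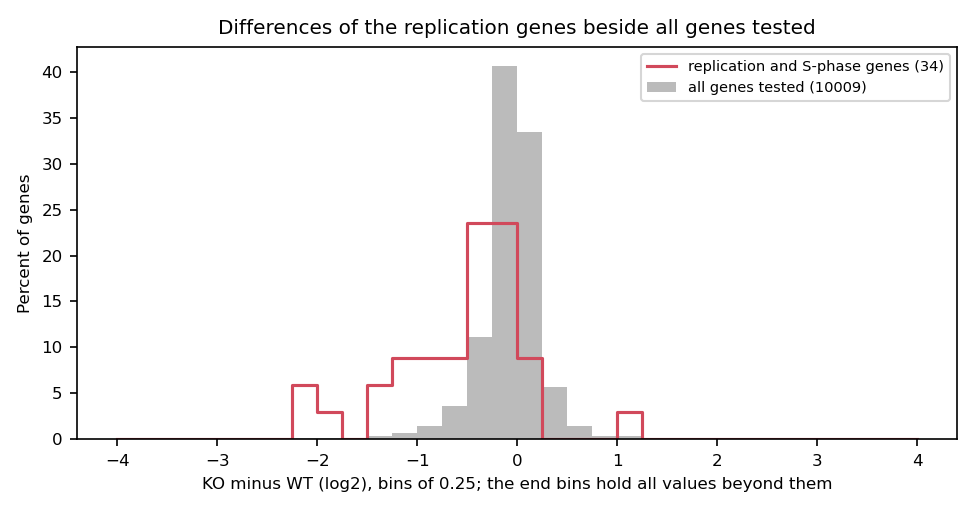
Share of genes in each bin of the difference KO minus WT (log2, bins 0.25 wide) for all 10009 genes tested (grey bars) and for the 34 replication and S-phase genes (red line). The median of the red line's genes is -0.41 and that of the grey bars is -0.04.

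The genes that license origins and form the helicase had the lowest median of the role groups, -0.85 over 12 genes tested of 15. Of these, 10 had a lower KO mean and 7 had an unadjusted p under 0.05 in that direction in limma, while 0 passed after adjustment. For this and the other role groups, the shares over all genes to set beside these counts were 58.4% and 10.1%. Mcm5, a subunit of the Mcm ring, measured 5.25, 5.97 and 7.18 on KO 1 to KO 3 and 8.40, 7.93 and 8.24 on WT 1 to WT 3. The groups did not overlap, and KO 3 was the KO array nearest to WT. KO livers held 24.0% of the WT level of Mcm5 (6.13 ± 0.98 against 8.19 ± 0.24, SD, n = 3 each), and the difference was -2.06 ± 0.49 (standard error; limma adjusted p = 0.224). A dimmer probe set of Mcm5 varied less, at 3.94, 4.11 and 4.44 in KO and 6.27, 6.41 and 6.49 in WT. When every probe set past the filter was tested, this probe set fell by 2.23 (limma, adjusted p = 0.0166 over 17316 probe sets). It was the only one of the 54 tested probe sets of these genes to pass, where 15 of all 17316 did. Its value on KO 1 lay below 4, so it passed the filter only through the WT arrays, which fixes its direction in part.

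Mcm6, a further subunit of the ring, measured 6.19, 7.99 and 7.67 in KO and 9.55, 9.03 and 9.44 in WT. Every KO value lay at least 1 log2 unit below the lowest WT value, and KO 1 was lowest. KO livers held 24.0% of the WT level (difference -2.06 ± 0.49, limma adjusted p = 0.224). Its dimmer probe set differed by -2.05. Mcm2 measured 4.86, 5.03 and 5.57 in KO and 6.24, 6.55 and 6.30 in WT. The groups were apart, with a KO level 43.3% of WT (difference -1.21 ± 0.20, limma adjusted p = 0.139).

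Mcm7 measured 8.22, 8.26 and 9.11 in KO and 9.59, 9.46 and 9.69 in WT, a difference of -1.05 (limma adjusted p = 0.231). Its further 3 probe sets differed by -0.40, -0.64 and -0.82, with overlap for the one at -0.40. Mcm3 spread widely among the KO mice, with 4.99, 5.92 and 6.92 against 7.27, 7.06 and 7.28 in WT, so that KO 3 came within 0.14 of the lowest WT array (difference -1.26, limma adjusted p = 0.327). Further tested probe sets of Mcm3 differed by -1.03, -0.59 and -0.33, and those at -0.59 and -0.33 overlapped. Mcm4 overlapped, at 6.27, 6.75 and 7.68 in KO and 7.63, 7.70 and 7.30 in WT. A second probe set of Mcm4 did not overlap, at 6.08, 6.57 and 7.41 against 7.54 to 7.57. All 6 subunits of the Mcm2 to Mcm7 ring thus had a lower mean in KO, with differences from -2.06 to -0.65.

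Cdt1, which brings the Mcm ring to origins, measured 6.08, 6.65 and 7.0 in KO and 7.85, 7.76 and 7.77 in WT. The WT mice lay close together and all KO mice lay below them (43.1% of WT, difference -1.21 ± 0.23, limma adjusted p = 0.178). A dimmer probe set of Cdt1 differed by -0.84, and its groups all but touched, with KO 3 at 5.02 and WT 2 at 5.03. Gmnn, which encodes geminin, the inhibitor of Cdt1, overlapped completely, at 8.92 to 9.20 in KO and 8.95 to 9.34 in WT. Its difference of -0.06 went to 0.00 when arrays were median-centred. The origin recognition subunits Orc1 and Orc6 differed by -0.03 and 0.04, and Orc1 turned positive with centring. Orc1 measured 4.56 on every array but WT 2, at 4.64, so its small difference carries little information. Gins1, a subunit of the GINS complex, measured 5.92, 6.33 and 5.83 in KO and 6.63, 6.33 and 6.43 in WT, where KO 2 and WT 2 all but touched (difference -0.44, limma adjusted p = 0.317).

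Mcm10, a replication initiation factor that joins the helicase at origins, had a higher mean in KO. It measured 11.14, 10.99 and 10.40 in KO and 9.70, 9.44 and 10.03 in WT, with no overlap, and the difference was 1.12 ± 0.24 (limma adjusted p = 0.202). This rests on 1 probe set. The other 2 probe sets of Mcm10 lay below 4 on every array, between 2.18 and 3.4, so the probe sets of this gene disagree in level and the direction could not be read from a second one.

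**Figure D3:**
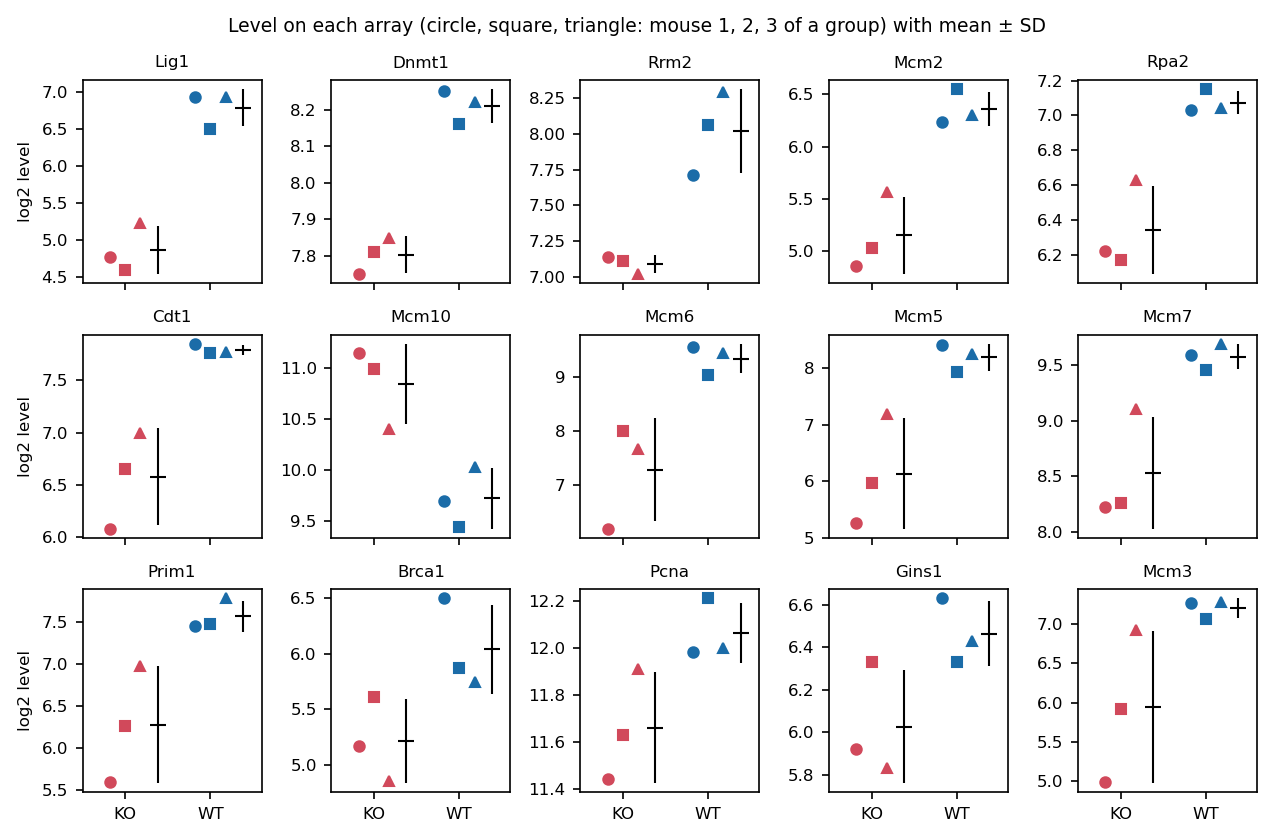
Level (log2) on each array for the 15 replication and S-phase genes with an unadjusted p under 0.05 in limma, in order of p; symbols mark mouse 1, 2 and 3 of a group, and the black bars give the mean ± SD of 3 arrays. The KO values of 14 genes lie below all WT values, those of Mcm10 lie above, and each panel has its own axis.

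Promoter sequences are shown because 7 of the lower genes share letters of the E2F motif near a start site. Promoters came from RefSeq (GRCm38.p6), 250 bases before to 50 bases after each start, and 37 of the 44 genes had at least 1. Some genes had several starts, with 32851 promoters for 27025 genes, and a gene counted if any of its promoters held a match. The letters TTTCGCGC or TTTGGCGC, on either strand, occurred for 11 of these 37 genes, or 29.7%, and for 0.929% of 27025 genes in the table. Among genes that were lower at an unadjusted p under 0.05 they occurred for 7 of 13 with a promoter, or 53.8%, and among the other tested genes for 3 of 16, or 18.8%. Dnmt1, Lig1 and Mcm7 also had starts whose promoters held no E2F match. Matches of the 2 forms can overlap on opposite strands. CCAAT, on either strand, occurred for 62.2% of the 37 genes and 41.1% of all genes. The CHR letters TTTGAA or TTCGAA occurred for 18.9% and 21.7%. By the same split, CCAAT occurred for 11 of 13 lower genes and 8 of 16 other tested genes, and the CHR letters for 3 of 13 and 3 of 16. A higher share among the lower genes was thus seen for CCAAT as well as for the E2F letters. A CCAAT match can share its first base with an E2F match. These are letter matches, with no binding measured.

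The stretches with matches are given 5′ to 3′ on the strand of the gene, with E2F letters in capitals. Each start named here is that of the promoter with the match. Mcm6 has 3 matches, of which the first 2 overlap, Mcm5 has 2 that overlap, and Dnmt1 has 1 before and 1 after the start. For Mcm6 (chr1:128359735-128359825, minus strand), Mcm5 (chr8:75109322-75109401, plus strand) and Dnmt1 (chr9:20952794-20952873, minus strand) the stretch lies before the start, with the first match 110, 153 and 219 bases before it. For Cdt1 (chr8:122568035-122568064, plus strand), Mcm3 (chr1:20820263-20820292, minus strand), Mcm7 (chr5:138171849-138171878, minus strand), Lig1 (chr7:13278841-13278870, plus strand) and the second match of Dnmt1 (chr9:20952574-20952603, minus strand) it is 30 bases around a match just after the start.
Mcm6: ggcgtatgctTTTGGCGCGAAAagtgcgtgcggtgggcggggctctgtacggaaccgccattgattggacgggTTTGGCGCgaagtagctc
Mcm5: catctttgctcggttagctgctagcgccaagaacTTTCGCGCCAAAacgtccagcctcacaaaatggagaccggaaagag
Dnmt1, before the start: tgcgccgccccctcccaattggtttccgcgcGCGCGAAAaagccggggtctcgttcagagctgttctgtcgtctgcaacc
Cdt1: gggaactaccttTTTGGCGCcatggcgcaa
Mcm3: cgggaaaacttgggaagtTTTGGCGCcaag
Mcm7: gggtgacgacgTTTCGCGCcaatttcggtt
Lig1: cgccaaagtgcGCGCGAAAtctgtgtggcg
Dnmt1, after the start: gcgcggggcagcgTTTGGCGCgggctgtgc

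Among the polymerases and primase, 4 of 5 genes were tested and all 4 had a lower KO mean, with a median of -0.49. Prim1, the catalytic subunit of primase, which lays the RNA primers, measured 5.59, 6.26 and 6.98 in KO and 7.45, 7.47 and 7.78 in WT. The groups were apart, and KO livers held 40.9% of the WT level (difference -1.29 ± 0.35, limma adjusted p = 0.25). Its second probe set differed by -1.17, also without overlap. Prim2, the large primase subunit, measured 4.26, 5.16 and 5.26 in KO and 5.25, 5.95 and 5.91 in WT and overlapped by 1 array (difference -0.81, limma adjusted p = 0.345). The catalytic subunits of polymerases alpha and delta, Pola1 and Pold1, overlapped, at differences of -0.17 and -0.15.

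The clamp, its loader and the lagging-strand enzymes were all bright enough to test, and 6 of 7 had a lower KO mean (5 of 7 with quantile normalization), with a median of -0.28. Lig1, the ligase that seals lagging-strand fragments, had the smallest p of the whole set. It measured 4.77, 4.59 and 5.22 in KO and 6.93, 6.5 and 6.93 in WT. The closest pair of arrays, KO 3 and WT 2, lay more than 1 log2 unit apart. KO livers held 26.3% of the WT level (4.86 ± 0.33 against 6.79 ± 0.25, SD, n = 3 each), and the difference was -1.92 ± 0.20 (limma adjusted p = 0.0564). The exact permutation p was 0.1, the smallest that 3 against 3 arrays allow. Over the alternative settings the adjusted p of Lig1 ran from 0.0267 to 0.27 in limma, and it passed in 6 of 17. Lig1 was read from a single probe set.

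Rpa2, a subunit of the single-strand binding protein RPA, measured 6.22, 6.17 and 6.63 in KO and 7.03, 7.15 and 7.04 in WT, without overlap (difference -0.73 ± 0.14, limma adjusted p = 0.174). A second probe set differed by -0.46. Pcna measured 11.44, 11.63 and 11.91 in KO and 11.98, 12.21 and 12.00 in WT. Its groups were apart by only 0.07, and KO livers held 75.7% of the WT level (limma adjusted p = 0.308). The clamp loader subunits Rfc3, Rfc4 and Rfc5 differed by -0.08, -0.25 and -0.28, with overlap in each, and Rfc3 turned positive with quantile normalization. A dimmer probe set of Rfc4 did not overlap and differed by -0.60, and a dimmer one of Rfc3 overlapped at -0.32.

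Fen1, the flap endonuclease that trims lagging-strand fragments, gave different answers from its 2 probe sets. The brighter one measured 9.99, 9.33 and 9.51 in KO and 9.47, 9.52 and 9.64 in WT, a difference of 0.06. The dimmer one measured 4.34, 5.01 and 5.51 against 5.91, 5.34 and 6.27, a difference of -0.89. Fen1 was the exception among 20 further probe sets of 16 genes, of which the other 19 had the direction of the probe set used. All 20 had a lower KO mean, where 52.8% of all 17316 probe sets tested did. Of the 20, 13 lay without overlap below WT, where 11.7% of all probe sets tested did. The further probe sets of Mcm5, Cdt1, Ccne1 and Pold1 had a KO array but no WT array below 4. They thus passed the filter only through WT, which fixes their direction in part, and those of Mcm5 and Cdt1 are among the 13.

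**Figure D4:**
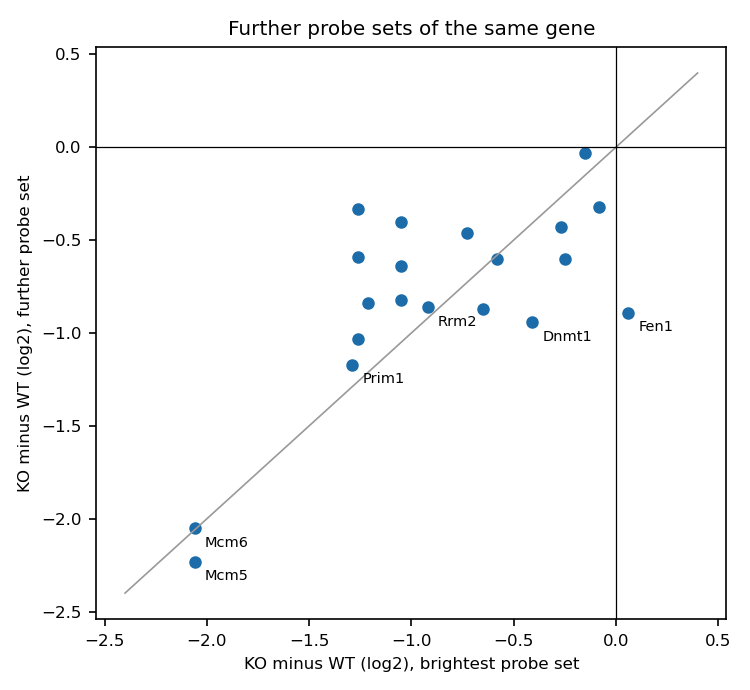
Difference KO minus WT (log2) from the brightest probe set of a gene (horizontal axis) and from each of the 20 further probe sets past the filter (vertical axis); the grey line marks equal values. All 20 points lie below 0 on the vertical axis, and only Fen1, at 0.06 and -0.89, has opposite signs.

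Of the nucleotide supply genes, 4 of 5 were tested and 3 had a lower KO mean, with a median of -0.50. Rrm2, the S-phase subunit of ribonucleotide reductase, measured 7.14, 7.11 and 7.02 in KO and 7.71, 8.06 and 8.29 in WT. The KO mice lay within 0.12 of each other, below every WT mouse. KO livers held 52.7% of the WT level (difference -0.92 ± 0.15, limma adjusted p = 0.138). A dimmer probe set of Rrm2 measured 5.46, 5.69 and 5.56 against 6.36, 6.46 and 6.48 and differed by -0.86 (limma adjusted p = 0.0527 over all probe sets).

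Rrm1, the large subunit of the same enzyme, overlapped, at 5.95, 7.04 and 7.23 in KO and 7.17, 7.73 and 7.08 in WT (difference -0.58, limma adjusted p = 0.494). Its second probe set did not overlap and differed by -0.60. Dut, the dUTPase that keeps uracil out of DNA, differed by -0.42 with overlap. Tk1, the cytosolic thymidine kinase, had a higher KO mean, at 9.55, 10.24 and 8.90 against 9.55, 9.21 and 9.24. KO 2 was the highest of all arrays and KO 3 the lowest, and without KO 2 the difference of 0.23 became -0.11.

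Of the chromatin genes only Dnmt1, the methyltransferase that copies DNA methylation onto new strands, was tested. It measured 7.75, 7.81 and 7.85 in KO and 8.25, 8.16 and 8.22 in WT. The shift was small but larger than the spread within either group (7.80 ± 0.05 against 8.21 ± 0.05, SD, n = 3 each, 75.3% of WT, limma adjusted p = 0.129). A dimmer probe set of Dnmt1 differed by -0.94, again without overlap. Uhrf1, which guides Dnmt1 to replicated DNA, reached 4 only on WT 3, at 4.10, and measured 3.06 or 3.07 on the KO arrays.

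Of the G1/S control and checkpoint genes, 6 of 8 were tested, and all 6 had a lower KO mean with a median of -0.25. Brca1, which acts in repair at stalled replication forks, measured 5.17, 5.61 and 4.86 in KO and 6.5, 5.87 and 5.75 in WT, without overlap (56.5% of WT, difference -0.82 ± 0.27, limma adjusted p = 0.296). The E-type cyclins Ccne1 and Ccne2, which drive entry into S phase with Cdk2, differed by -0.27 and -0.37 with overlap. Cdk2 measured 8.14 to 8.71 in KO and 8.49 to 8.62 in WT, a difference of -0.13 that became 0.01 without KO 2. E2f1, an activating E2F factor, and E2f8, a repressing one, differed by -0.23 and -0.18 with overlap, and E2f8 became 0.02 without WT 3. E2f1 was dim, with the same value of 4.36 on KO 1, KO 3 and WT 3. The groups thus overlapped for the cyclins, Cdk2 and both E2F factors, with limma adjusted p from 0.398 to 0.757.

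The other 10 genes could not be compared. Chaf1a, a subunit of the histone chaperone CAF-1, had no probe set of its own symbol alone. Cdc6, Cdc45, Gins2, Pole, Tyms, Chaf1b, Uhrf1, E2f7 and Chek1 were too dim, with values from 2.18 to 4.10. Chek1, the checkpoint kinase of S phase, measured 2.18, 2.36 and 3.30 in KO and 3.24, 3.18 and 3.47 in WT, and the polymerase epsilon subunit Pole 2.93 to 3.04 against 3.04 to 3.72. Differences at this level carry little information.

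Mice of the KO group differed among themselves, in an order that only part of the genes shared. KO 3 was the highest of the 3 KO arrays for 22 of the 34 genes, or 64.7%, where it was the highest for 34.9% of all genes. KO 1 was the lowest for 19, or 55.9%, where it was the lowest for 32.5% of all genes. The licensing and helicase genes deviated from the WT mean by a median of -1.32 on KO 1, -0.97 on KO 2 and -0.37 on KO 3, and by -0.08 to 0.06 on the WT arrays. The set as a whole deviated by -0.51, -0.42 and -0.18. The G1/S control and checkpoint genes had another order, at -0.11, -0.43 and -0.15, and nucleotide supply genes lay at -0.82, -0.30 and -0.31. Among the 14 lower genes, Rrm2, Brca1 and Gins1 had their lowest KO value on KO 3, Mcm6 had its highest on KO 2, and Lig1 and Rpa2 had their lowest on KO 2. Without KO 3, 5 of the 34 genes passed in limma, all lower in KO. These were Mcm7 (adjusted p = 0.0243), Lig1 (0.0267), Rpa2 (0.0278), Mcm2 (0.0323) and Mcm5 (0.037), and 140 of 10009 genes passed then against 17 with all arrays. KO 3 held the highest KO value of each of these 5 genes, so leaving it out could only widen their differences. With both KO 3 and WT 2 left out, 0 passed after adjustment in limma and 18 had an unadjusted p under 0.05, as did 1594 of all 10009 genes. In that setting 29 of 34 had a lower KO mean and the median was -0.46.

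**Figure D5:**
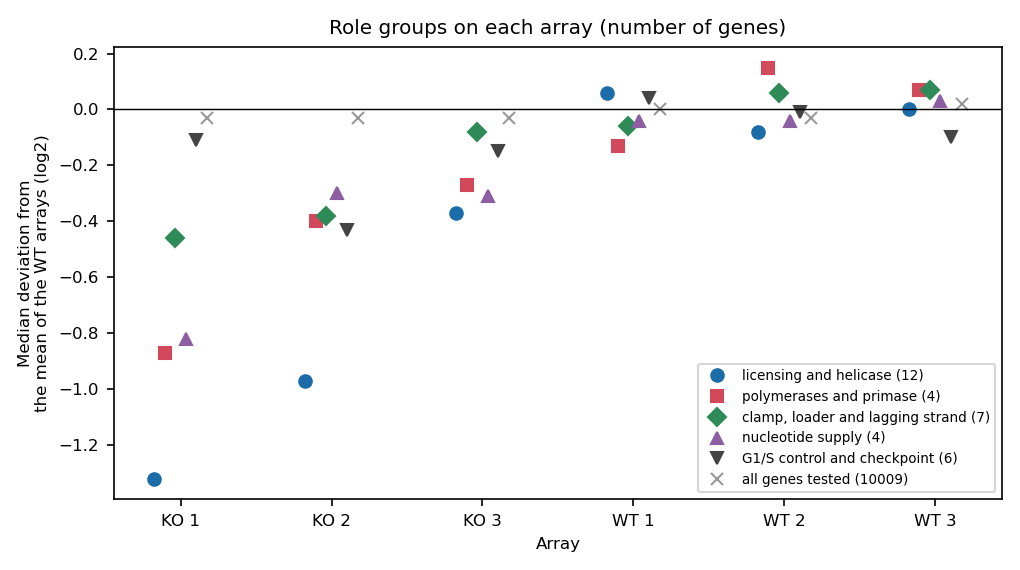
Median deviation from the mean of the WT arrays (log2) on each of the 6 arrays for 5 role groups and for all genes tested, with the number of genes in brackets. The licensing and helicase genes lie at -1.32, -0.97 and -0.37 on KO 1, KO 2 and KO 3, while all genes lie between -0.03 and 0.02 on every array.

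Markers of other cell types were measured in the same livers. Among all genes tested, 58.4% had a lower KO mean and 10.1% were lower at an unadjusted p under 0.05 in limma. Kupffer cell and macrophage markers were lower in KO for 14 of 14 genes, with a median of -0.86, and in limma 10 had an unadjusted p under 0.05 and 0 passed after adjustment. Their summed level was 13.48 to 14.41 in KO and 14.64 to 14.79 in WT, and no marker lay below 4 on any array. On KO 1, KO 2 and KO 3 they deviated from WT by a median of -1.30, -1.09 and -0.24. Endothelial markers were lower for 9 of 11 genes, with a median of -0.38, and 5 had an unadjusted p under 0.05 in limma. Of these, Lyve1, a receptor of sinusoidal endothelium, fell by 1.32 (limma adjusted p = 0.0353). Their summed levels were 12.91 to 13.29 in KO and 13.19 to 13.40 in WT. Stellate markers were lower for 9 of 10 genes, with a median of -0.38, 3 at an unadjusted p under 0.05 and 0 after adjustment in limma, and summed levels of 13.68 to 14.11 in KO and 14.12 to 14.59 in WT. The level of 14.59 was that of WT 2, which held muscle transcripts, and WT 1 and WT 3 lay at 14.12 and 14.30. Des, on the stellate list, measured 7.53 on WT 2 and 3.46 on every other array. Hepatocyte markers had a median of -0.06, with summed levels of 18.53 to 18.59 and 18.60 to 18.63. The 18S rRNA controls measured 8.501 to 9.245 in KO and 7.766 to 8.442 in WT. The part of these in the replication genes was not tested.

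Blood cell markers were mixed in level. Cd3d, Cd3e and Cd79a of lymphocytes, Ngp, Camp and Mpo of neutrophils and their precursors, and Epor of erythroid cells lay below 4 on all 6 arrays. Others were bright, with Alas2, of heme synthesis, at 9.12 to 10.04 in KO and 9.0 to 9.57 in WT, the transferrin receptor Tfrc at 9.32 to 10.56 and 9.69 to 10.64, and Kit at 6.51 to 6.67 and 6.34 to 6.89. The neutrophil gene S100a8 measured 6.66 on KO 1 and 4.55 to 5.49 on the other arrays. The summed lymphocyte markers measured 6.55 to 6.73 in KO and 6.49 to 6.77 in WT, with 2 of 10 bright enough to test. The summed erythroid and progenitor markers measured 10.85 to 11.11 and 10.76 to 11.18, with 3 of 9 tested, and the neutrophil markers 6.66 to 7.72 and 6.8 to 6.98, with 3 of 8 tested. Of the biliary markers, Krt7, Krt19, Sox9 and Cftr lay below 4 on all arrays and Epcam at 3.82 to 4.28. Their summed level, 12.87 to 13.16 in KO and 12.82 to 13.15 in WT, rests on Krt8 and Krt18, which hepatocytes also express.

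Further replication factors had a median nearer to 0. Of 31 tested, 24 had a lower KO mean, 0 passed after adjustment, 9 were lower and 0 higher at an unadjusted p under 0.05 in limma, and the median was -0.12. Among all genes, 58.4% had a lower KO mean, and 10.1% were lower and 4.32% higher at that unadjusted p. Pole3, an accessory subunit of polymerase epsilon, measured 8.35 to 8.5 in KO and 8.74 to 8.85 in WT, a difference of -0.35 (limma adjusted p = 0.194). Hells, a chromatin remodeller of dividing cells, lay below 4 on all KO arrays and at 4.26 to 5.55 in WT. It passed the filter only through WT, as did Timeless and Zranb3, and without these 3 genes the median was -0.11, with 21 of 28 lower and 7 at an unadjusted p under 0.05 in limma. Pold3, a further subunit of polymerase delta, differed by -0.21, and Rnaseh2c, of the enzyme that removes RNA from DNA, by -0.37.

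Other genes of nucleotide supply, most of which serve RNA and metabolism as well, had a median of -0.07 over 21 genes, with 0 passing after adjustment in limma. At an unadjusted p under 0.05 in limma 1 was lower and 1 higher, where 10.1% and 4.32% of all genes were. The lower one was Ctps2, a CTP synthase, at -0.45, and the higher one Cad, which starts pyrimidine synthesis, at 0.52. Shmt2 and Mthfd1 of folate metabolism differed by 0.14 and -0.38. Histone supply genes had a median of -0.22 over 11, with 3 lower and 0 higher at an unadjusted p under 0.05 and 0 after adjustment in limma. These 3 were Cenpa, the centromeric histone, at -1.04, Slbp, which binds histone mRNA, at -0.22 and the histone chaperone Nasp at -0.26.

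The E2F, RB and G1 genes had a median of -0.23 over 27, with 0 passing after adjustment in limma. At an unadjusted p under 0.05 in limma 9 were lower and 1 higher, where 10.1% and 4.32% of all genes were. Cdkn1a, the cyclin-dependent kinase inhibitor p21, measured 4.0, 4.03 and 4.95 in KO and 5.29, 5.33 and 5.57 in WT, a difference of -1.07 (limma adjusted p = 0.243). Rbl1, the RB relative p107, differed by -0.75, the D-type cyclin Ccnd1 by -0.85 and the inhibitor Cdkn1c by -0.62. S-phase repair and checkpoint genes had a median of -0.04 over 15, with 0 passing after adjustment and Brca2, at -0.59, the only one at an unadjusted p under 0.05 in limma. Next by p were Blm at 0.24, Pms2 at -0.18 and Msh6 at -0.15. Chek2 passed the filter only through WT, and without it the median over 14 genes was again -0.04.

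Mitosis genes were also lower in the same livers. Of 30 listed, 17 were tested, but 10 of these reached 4 on fewer than 3 KO arrays and so passed the filter only through the WT arrays, which fixes their direction in part. Their calls are therefore not counted here. The other 7 all lay without overlap below WT, where 14% of all genes did, with differences from -3.32 to -0.49. Of these, Spc24, a kinetochore subunit, fell by 0.54 (limma adjusted p = 0.0456). Mki67, the gene of the proliferation marker Ki-67, measured 4.17, 4.07 and 5.72 in KO and 8.03, 7.7 and 8.03 in WT. The 7 genes deviated from WT by a median of -2.47, -2.38 and -1.18 on KO 1, KO 2 and KO 3. Whether the shift of the mitosis genes differs from that of the replication genes was not tested.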

How the data were processed

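Total liver RNA of 3 KO and 3 WT mice was labelled with biotin and hybridised to Affymetrix arrays, per the labels' protocols. The authors made the deposited log2 values with GCRMA 2.16.0 in R 2.9.1 (source: the submitters' processing notes), and their further settings are not given in the sources used here. That the scale is log2 was read from the values, which ran from 2.185 to 16.327, with 28.9% tied at the lowest. GCRMA normalises across arrays and shrinks dim probe sets, so low levels carry little information.

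Of 45101 probe sets, 34945 had 1 gene symbol in the platform annotation, 932 several and 9160 none, and 64 were controls. The brightest probe set stood for each of 18193 genes, and 10009 passed the filter (3 or more of the 6 arrays at a log2 level of 4 or above). KO was compared with WT by limma 3.58.1 in R 4.3.3, with lmFit followed by eBayes (two-sided, no covariates), with Benjamini-Hochberg adjustment over all 10009 genes and a threshold of 0.05. A summed marker level is the log2 of the summed linear levels. The fit was tested on simulated data. Figures used matplotlib 3.10.9.

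The genes and lists were chosen with earlier results of these data known. Genes were named by rule: all genes of the set are accounted for, with full values for those called, the 14 with the smallest p, and the brightest and most raised of each role; other lists give up to 4 by p, so that not all picks are printed. Gmnn, Rrm1, Mcm3, Mcm4, Prim2, Chek1, Pole, Uhrf1, Spc24, Mki67, the markers named singly and the second probe sets were described after their values were seen. No pairing of the arrays by replicate number was seen in the values, which cannot exclude one. The number of arrays limits the precision.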

Additional observations from a re-analysis of the deposited data

How the results depend on the processing

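The count of genes called in limma, 17 of 10009, was 3 with no filter, 8 with a filter on the mean, 10 (by the brightest probe set) with every probe set tested, 3 without KO 3 and WT 2, and 0 with the replicate block (limma, where 1235 had an unadjusted p under 0.05, among them 16 of the 34 replication genes); leaving out 1 array gave 1 to 140 (6, 1 and 140 without KO 1, KO 2 and KO 3, and 1, 1 and 5 without WT 1, WT 2 and WT 3). Deviations of same-numbered mice from their group means correlated at -0.086, -0.079 and -0.141, and no KO array correlated best with its own number. No pairing by replicate number was thus seen, though 3 arrays a group cannot exclude one. Over all genes tested, 25 were called in limma with values floored at 4, 18 with median centring and 25 with quantile normalization. With each gene's probe sets averaged 17 of 9234 were called, and with array weights 19. The count of replication and S-phase genes called, 0, was 1 (Lig1) in each of these settings, and 0 to 5 with 1 array left out (5 without KO 3). Their median ran from -0.46 to -0.31, and the number lower from 28 of 34 (with median centring and with quantile normalization) to 30 of 34, over all alternatives; 26 of 29 were lower with probe sets averaged. Single differences near 0 changed sign. These were Orc1 to 0.04 and Gmnn to 0.00 with median centring, Orc1 to 0.09 and Rfc3 to 0.03 with quantile normalization, Fen1 to -0.41 with the mean of its probe sets and, with 1 array left out, Gmnn (-0.17 to 0.03), Fen1 (-0.13 to 0.2), Tk1 (-0.11 to 0.56), Cdk2 (-0.27 to 0.01), Orc6 (-0.05 to 0.11) and E2f8 (-0.46 to 0.02). The cause of these changes was not tested. Genes below a log2 level of 4 could not be compared.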
